A study of Saccharomyces cerevisiae with 12 samples.

Results

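The genes of glycogen metabolism were followed in baker's yeast grown in chemostats with glucose as the limiting nutrient, in 4 groups of cultures. The 10 genes were PGM2 (YMR105C), UGP1 (YKL035W), GLG1 (YKR058W), GLG2 (YJL137C), GSY1 (YFR015C), GSY2 (YLR258W), GLC3 (YEL011W), GAC1 (YOR178C), GPH1 (YPR160W) and GDB1 (YPR184W), out of 5656 genes with a probe set of their own among 9275 tested probe sets. They were chosen by function, as the genes that make, trim and regulate the polymer, and each was read by 1 probe set whose name carried no mark of sharing between genes. A signal is an array intensity on a linear scale, and signals were compared between groups within a probe set, never between probe sets.

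Glycogen is the branched glucose store of yeast. Glucose 6-phosphate is turned into glucose 1-phosphate by phosphoglucomutase, and this into UDP-glucose by UDP-glucose pyrophosphorylase. Glycogenin starts the chain, glycogen synthase extends it and the branching enzyme adds branches, while phosphorylase and the debranching enzyme take the polymer apart. Synthase is active when dephosphorylated, and nutrient signalling through protein kinase A holds both the store and the transcription of many of its genes down when glucose is plentiful.

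Each group held 3 cultures with 1 array each. IMZ383, grown without oxygen, carried acs2::HIS3 and acs1::LEU2 and the plasmid pUDE204 with URA3 and the Escherichia coli genes pflB, for pyruvate formate-lyase, and pflA, for the enzyme that activates it. The reference without oxygen was CEN.PK113-7D (MATa MAL2-8C SUC2). IMZ305, grown with air, carried ald2-ald3::LEU2, ald4::HIS3, ald5::KanMX4, ald6::hphNT1, acs2::natNT2 and acs1::AmdS and the plasmid pUDE151 with URA3 and E. coli eutE, which encodes an acetylating acetaldehyde dehydrogenase. The reference with air was CEN.PK113-7D again. Both engineered strains derived from CEN.PK102-12A, which has the same MATa MAL2-8C SUC2 alleles and carries ura3-52, his3-Δ1 and a leu2 allele, so that marker genes and a plasmid differed from the reference along with the route to acetyl-CoA. Each engineered genotype was 1 named strain, grown in separate chemostats. Every chemostat was held at 30 °C and pH 5.0 and diluted at 0.1 per h. The feed without oxygen held 20 g/L glucose, 10 mg/L ergosterol and 420 mg/L Tween 80, and the feed with air held 7.5 g/L glucose, so oxygen and feed cannot be told apart.

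The arrays had been scaled by the authors to a common trimmed mean (150.12 to 150.15), and arrays of a group correlated at 0.966 to 0.987. ACS1 and ACS2, deleted in both engineered strains, read at most 6.1 there. The highest of 19 non-target control probe sets reached 7.5, and the lowest signal of any glycogen gene was 13.6. For ACT1, the ratio between probe sets near its 3' and 5' ends, which is higher in degraded RNA, was 1.37 to 1.47 in IMZ383 against 1.67 to 1.90 in the reference without oxygen, and 1.61 to 1.65 in IMZ305 against 1.24 to 1.97 in the reference with air. The hybridization control BioB read 7.90 to 12.0 on the 3 IMZ305 arrays and on replicates 1 and 2 of the reference with air, and 42.9 to 86.2 on the other 7 arrays. In the reference with air, replicate 1 had the highest signal for 7 of the 10 genes and the highest ACT1 ratio, and replicate 2 had the lowest signal for 7 and the lowest ratio. The part of RNA quality in the results was not tested, and BioB was tried as a term of the fit. BioB was split within a group only in the reference with air. With the term, IMZ305 was therefore set against replicates 1 and 2 of that group, and the reference without oxygen against replicate 3 alone.

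PGM2 and UGP1 supply UDP-glucose. PGM2, the major phosphoglucomutase, read 208.0, 475.6 and 477.4 in IMZ383 against 220.8, 223.2 and 310.1 in the reference without oxygen. With air PGM2 read 191.0, 200.6 and 163.8 in IMZ305 against 352.9, 354.3 and 322.5 in the reference. All IMZ305 arrays lay below all reference arrays of both conditions, and replicate 1 of IMZ383 stood far below the other 2 arrays of its group. UGP1, UDP-glucose pyrophosphorylase, read 598.2, 638.4 and 730.7 in IMZ383 against 531.5, 476.1 and 575.3 in the reference without oxygen. With air UGP1 read 459.2, 555.8 and 520.0 in IMZ305 against 622.8, 605.4 and 597.4 in the reference. UGP1 varied least of the 10 genes, with a ratio of 1.28 between its highest and lowest group mean.

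The glycogenins GLG1 and GLG2 glucosylate themselves to prime the chain. GLG1 read 47.7, 51.2 and 52.3 in IMZ383 against 47.4, 64.9 and 53.5 in the reference without oxygen. With air GLG1 read 37.4, 39.1 and 47.3 in IMZ305 against 148.8, 80.1 and 86.8 in the reference. The reference with air stood above every other array, and its own spread was the widest of the 4 groups (CV 36.0%). GLG2 read 22.1, 20.6 and 26.1 in IMZ383 against 30.1, 22.3 and 19.3 in the reference without oxygen. With air GLG2 read 39.4, 46.5 and 51.4 in IMZ305 against 84.2, 64.2 and 92.3 in the reference. GLG2 was the only one of the 10 genes whose lowest group mean was not that of IMZ305: both groups without oxygen lay below both groups with air.

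The synthases GSY1 and GSY2, of which GSY2 encodes the major form, did not share an order of groups. GSY1 read 126.5, 157.7 and 103.1 in IMZ383 against 275.9, 123.8 and 171.8 in the reference without oxygen. With air GSY1 read 25.4, 24.3 and 13.6 in IMZ305 against 98.2, 68.3 and 56.4 in the reference. GSY1 had the widest range of group means, with a ratio of 9.03 between the reference without oxygen and IMZ305. GSY2 read 279.3, 283.9 and 283.0 in IMZ383 against 180.0, 168.3 and 201.5 in the reference without oxygen. With air GSY2 read 95.5, 105.7 and 109.5 in IMZ305 against 444.1, 263.5 and 330.3 in the reference. The IMZ383 arrays of GSY2 were the tightest group of any gene (CV 0.864%), and they overlapped only with the reference with air.

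GLC3 encodes the branching enzyme, and GAC1 the subunit that brings the protein phosphatase Glc7 to glycogen synthase. GLC3 read 400.0, 511.8 and 367.6 in IMZ383 against 452.7, 406.0 and 381.6 in the reference without oxygen. With air GLC3 read 303.1, 288.5 and 331.7 in IMZ305 against 709.1, 447.0 and 501.9 in the reference. IMZ305 lay below every other group, and the other 3 groups of GLC3 overlapped along their order. GAC1 read 51.8, 54.2 and 61.8 in IMZ383 against 121.5, 92.9 and 81.0 in the reference without oxygen. With air GAC1 read 56.0, 49.4 and 39.7 in IMZ305 against 184.8, 123.3 and 198.3 in the reference. GAC1 was the one gene whose signal was below the reference in both engineered strains with no overlap of arrays, and IMZ383 and IMZ305 overlapped.

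The enzymes of breakdown are GPH1, glycogen phosphorylase, and GDB1, the debranching enzyme. GPH1 read 400.0, 379.0 and 400.4 in IMZ383 against 345.2, 391.5 and 383.7 in the reference without oxygen. With air GPH1 read 76.4, 80.3 and 75.7 in IMZ305 against 375.4, 245.3 and 256.0 in the reference. The other 3 groups of GPH1 overlapped along their order, and the mean of IMZ305 was 26.5% of the lowest other group mean. GDB1 read 236.2, 289.0 and 229.9 in IMZ383 against 206.2, 237.7 and 201.0 in the reference without oxygen. With air GDB1 read 183.3, 200.1 and 144.4 in IMZ305 against 368.9, 241.7 and 366.1 in the reference. GDB1 had the same order of group means as GSY2 and GLC3: reference with air, IMZ383, reference without oxygen, IMZ305. As for GLC3, the other 3 groups of GDB1 overlapped along their order, and IMZ305 lay below them.

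**Figure D1:**
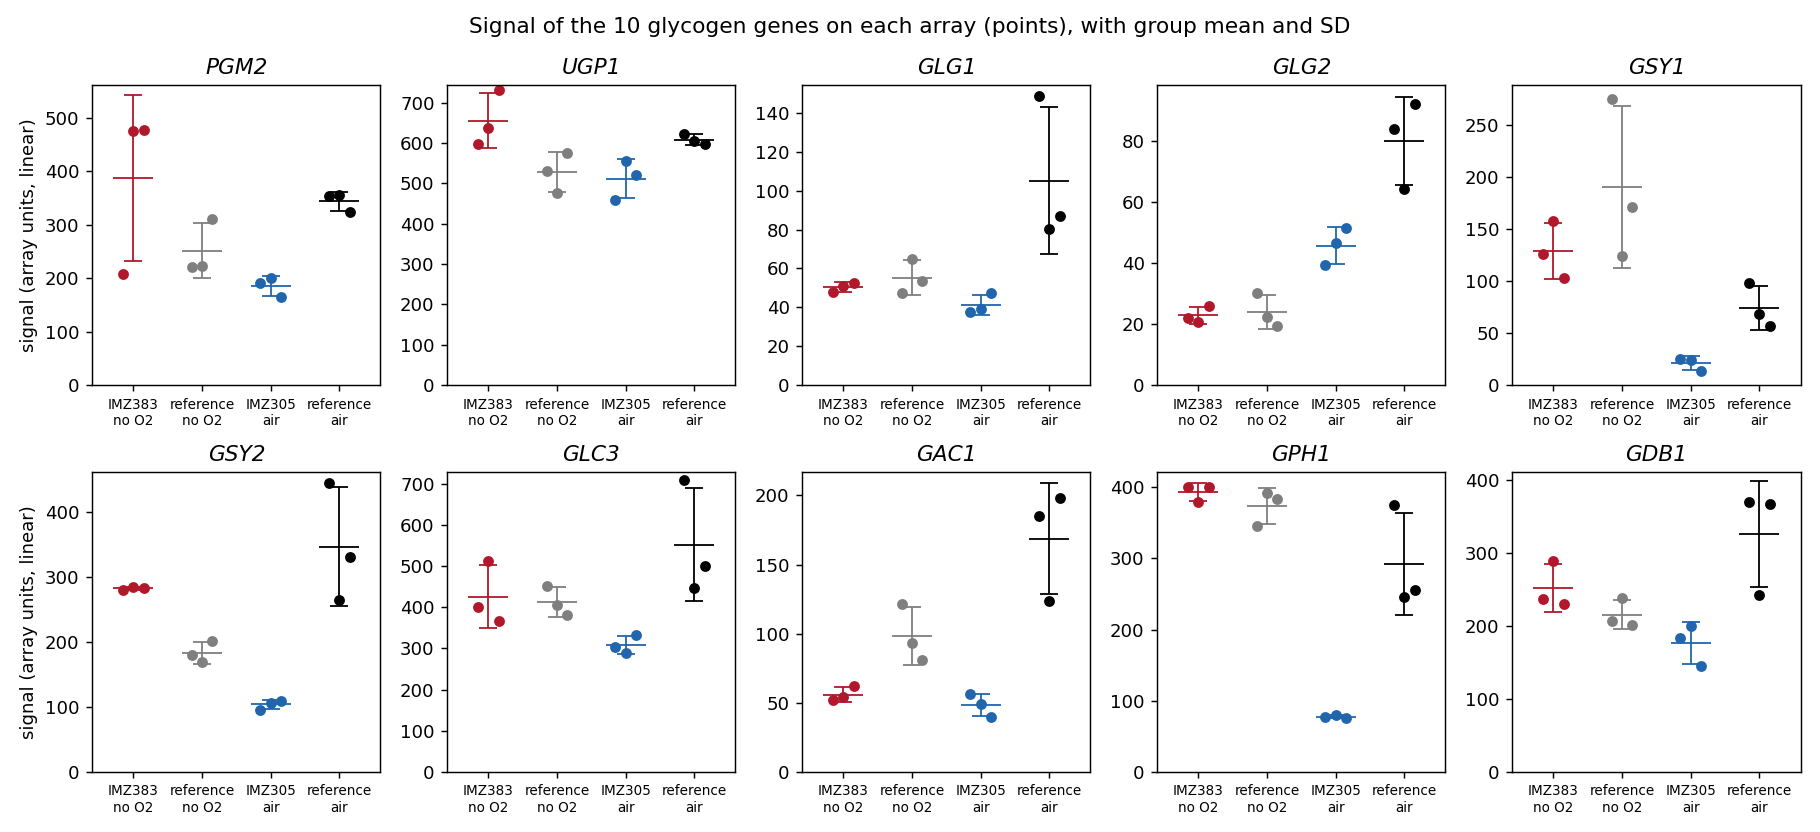
Signal (array units, linear axis from 0) of each glycogen gene on the 12 arrays, as points, with the group mean and SD over 3 cultures. IMZ305 had the lowest group mean for 9 of the 10 genes, and GLG2 was lowest in IMZ383.

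IMZ305, with the eutE route to acetyl-CoA, was compared with the reference strain, both with air. Route, deletions, marker genes and plasmid differed together and cannot be told apart. Of the 10 glycogen genes 8 fell in IMZ305 and 0 rose, in steps of synthesis, branching, regulation and breakdown alike. The largest falls were those of the phosphorylase gene GPH1 (3.70-fold), the synthase genes GSY1 (3.56-fold) and GSY2 (3.27-fold) and the phosphatase subunit gene GAC1 (3.45-fold). Of all 9275 probe sets 14.4% were called in this comparison (8.3% lower and 6.09% higher). For all 10 genes the 3 IMZ305 arrays lay below the 3 reference arrays, which was the case for 16.6% of all probe sets. All 10 had an unadjusted p under 0.05, as did 28.2% of all probe sets. The median log2 change of the 10 genes was -1.10, and that of all probe sets was 0. In a fit to 1 probe set per gene 696 of 5656 genes were called lower and 485 higher, with a median of -0.035. PGM2 was then called lower too.

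A gene was called when its limma p, adjusted by the Benjamini-Hochberg method over all probe sets, was under 0.05. GPH1 averaged 77.5 ± 2.48 in IMZ305 and 292 ± 72.2 in the reference (SD, n = 3 each), a log2 change of -1.89 ± 0.15 (SE) with a limma adjusted p of 9.996e-05. GSY2 averaged 104 ± 7.24 in IMZ305 and 346 ± 91.3 in the reference, a log2 change of -1.71 ± 0.17 with an adjusted p of 0.000323. GAC1 averaged 48.4 ± 8.20 in IMZ305 and 169 ± 40.0 in the reference, a log2 change of -1.79 ± 0.22 with an adjusted p of 0.00104. GSY1 averaged 21.1 ± 6.52 in IMZ305 and 74.3 ± 21.5 in the reference, a log2 change of -1.83 ± 0.35 with an adjusted p of 0.0102. The calls of these 4 genes and of GLG1 held without any single array.

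The primer gene GLG1 fell 2.46-fold (log2 change -1.30 ± 0.22, adjusted p 0.00598). GDB1 fell 1.83-fold (adjusted p 0.0174), GLC3 1.76-fold (adjusted p 0.0187) and GLG2 1.74-fold (adjusted p 0.0278). The supply genes were not called: PGM2 had a log2 change of -0.89 with a 95% confidence interval of -1.56 to -0.23 and an adjusted p of 0.0771, and UGP1 had -0.25, with an interval of -0.50 to -0.0044 and an adjusted p of 0.171. GLC3 was not called without IMZ305 replicate 1 or 2 (adjusted p 0.0616 and 0.0697), and GDB1 not without reference replicate 1 or 3 (0.0584 and 0.0532). GLG2 was not called without any 1 of these 4 arrays (0.0778 to 0.101). PGM2 was called without IMZ383 replicate 1 (0.00704), an array that enters here only through the shared spread. In a fit to the 6 arrays compared GLC3, GDB1, GLG1 and GLG2 were not called and PGM2 was (adjusted p 0.0160). As these are whole cultures, less of an RNA in every cell and fewer cells with it cannot be told apart.

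**Figure D2:**
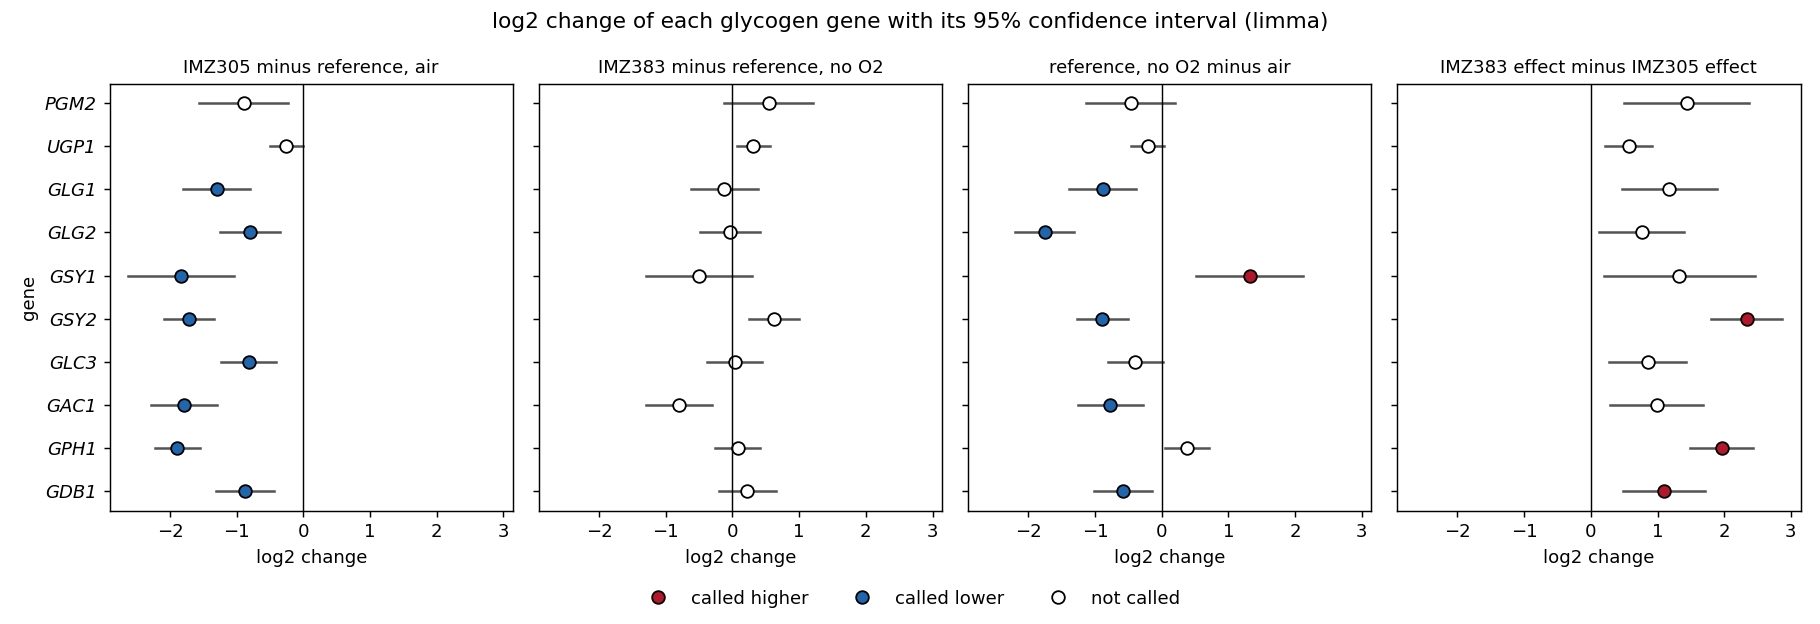
The log2 change of each glycogen gene (points) with its 95% confidence interval (lines) in the 4 comparisons, with filled points for called genes. With air all 10 points lie left of 0 and 8 are filled, and without oxygen IMZ383 has no filled point.

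IMZ383, with the pyruvate formate-lyase route, was set against the reference strain, both without oxygen. Here too route, deletions, marker genes and plasmid differed together. None of the 10 glycogen genes was called by limma in either direction, against 2.29% of all probe sets (1.69% higher and 0.593% lower), and 3 had an unadjusted p under 0.05, which 15.4% of all probe sets had. The median log2 change of the 10 genes was 0.055, and that of all probe sets 0.058. With 1 probe set per gene 169 of 5656 genes were called higher and 63 lower, with a median of 0.08. The signs were mixed within single steps: the signal of GSY2 was above, and that of its activator GAC1 below, the reference on every array.

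GSY2 averaged 282 ± 2.44 in IMZ383 and 183 ± 16.8 in the reference (SD, n = 3 each), a log2 change of 0.63 with a 95% confidence interval of 0.25 to 1.00 and a limma adjusted p of 0.100. GAC1 averaged 55.9 ± 5.22 in IMZ383 and 98.5 ± 20.8 in the reference, a log2 change of -0.80 with an interval of -1.29 to -0.31 and an adjusted p of 0.108. UGP1 averaged 656 ± 67.9 in IMZ383 and 528 ± 49.7 in the reference, a log2 change of 0.31 with an interval of 0.063 to 0.56 and an adjusted p of 0.212. GSY2 and UGP1 were higher and GAC1 was lower without overlap of arrays, which held for 13.4% of all probe sets in the first direction and 6.98% in the second.

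The other 7 genes had intervals that included 0. GPH1 had 0.076 on the log2 scale (-0.26 to 0.41), GLC3 0.034 (-0.38 to 0.45) and GDB1 0.22 (-0.21 to 0.66). GLG1 had -0.12 (-0.63 to 0.38), GLG2 -0.042 (-0.49 to 0.41) and GSY1 -0.50 (-1.30 to 0.29). PGM2 had 0.54 (-0.12 to 1.21, adjusted p 0.427). Without IMZ383 replicate 1, the low array of that gene, PGM2 was called higher (0.94, adjusted p 0.0317), and GSY2 was called without replicate 1 or 2 of the reference with air (adjusted p 0.0280 and 0.0409), arrays that enter here only through the shared spread.

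The reference strain itself, without oxygen against with air, showed how far the 10 genes move with the culture condition. GLG2 fell 3.38-fold without oxygen, GSY2 1.85-fold, GLG1 1.85-fold, GAC1 1.70-fold and GDB1 1.49-fold, while GSY1 rose 2.49-fold. The synthase genes moved in opposite directions. The counts were 1 higher and 5 lower of 10. Of all probe sets 34.2% were called here, 11% higher and 23.3% lower, and 7 of the 10 genes and 43.2% of all probe sets had an unadjusted p under 0.05. The median log2 change of the 10 genes was -0.52 and that of all probe sets -0.178. With 1 probe set per gene 1964 of 5656 genes were called lower and 619 higher, with a median of -0.299.

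GLG2 averaged 23.9 ± 5.57 without oxygen and 80.2 ± 14.5 with air (SD, n = 3 each), a log2 change of -1.76 ± 0.20 (SE) with a limma adjusted p of 0.000153. GSY1 averaged 191 ± 77.8 without oxygen and 74.3 ± 21.5 with air, a log2 change of 1.32 ± 0.35 with an adjusted p of 0.0178. GSY2 had a log2 change of -0.89 ± 0.17 (adjusted p 0.00298), GLG1 -0.88 ± 0.22 (adjusted p 0.0137), GAC1 -0.77 ± 0.22 (adjusted p 0.0228) and GDB1 -0.58 ± 0.19 (adjusted p 0.0438). GPH1 (0.38, adjusted p 0.0775), GLC3 (-0.39, adjusted p 0.130), PGM2 (-0.47, adjusted p 0.267) and UGP1 (-0.21, adjusted p 0.182) were not called. For 7 genes the arrays without oxygen all lay below those with air (28.8% of all probe sets), and for GSY1 they all lay above (14.6%).

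Scaling mattered here more than in the other comparisons. Centring each array on its median moved the median of all probe sets by 0.395 on the log2 scale, and then GSY2, GAC1, GDB1 and GLG1 were not called lower, GPH1 was called higher (0.77, adjusted p 0.00684), and the signs of GLC3 and UGP1 turned. With the arrays as deposited 32.1% of the calls over all probe sets were higher, against 48.9% after quantile normalization and 67.6% after median centring. GLG2 and GSY1 were called in their directions under all 3 scalings. Leaving out 1 array ended the call of GSY1 without reference replicate 3 with air or replicate 1 without oxygen (adjusted p 0.0619 and 0.0574), and that of GAC1 without replicate 1 or 3 with air or replicate 2 or 3 without oxygen (0.0632 to 0.0851). The call of GDB1 held in 3 of 12 such fits, and GPH1 was called without replicate 1 with air (0.57, adjusted p 0.00168).

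**Figure D3:**
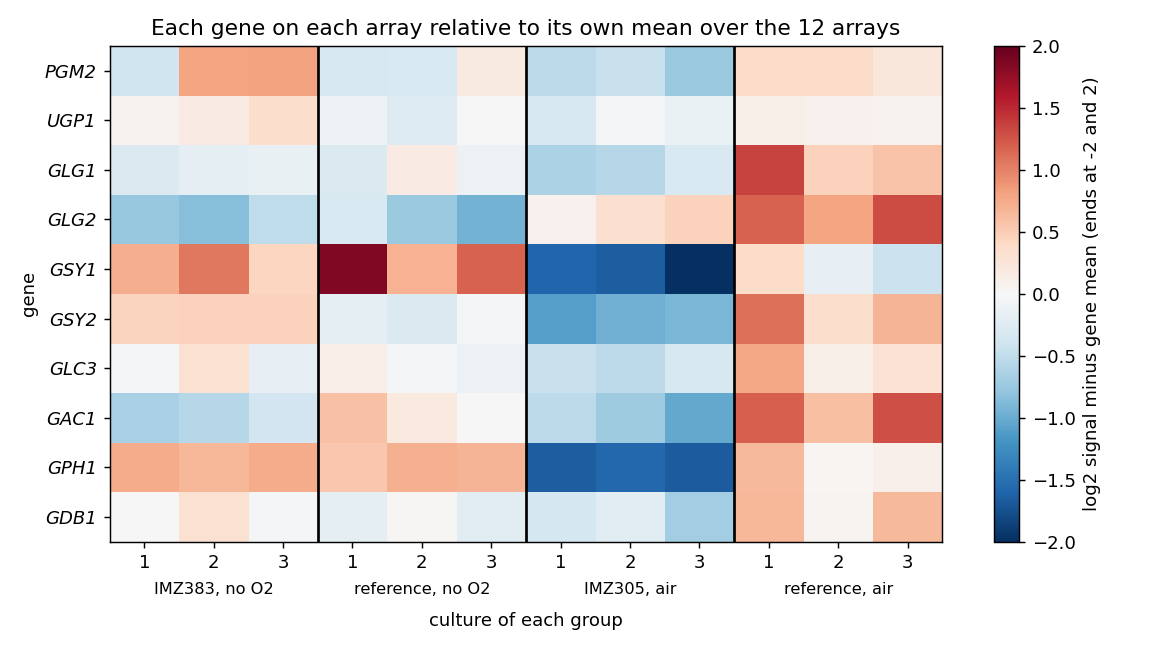
The log2 signal of each glycogen gene on each array minus the gene's mean over the 12 arrays, with groups side by side and colours ending at -2 and 2. The block of IMZ305 is below the mean for every gene but GLG2, and GLG2 is below its mean in both groups without oxygen.

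The difference between both strain effects, IMZ383 minus IMZ305, was tested as a term of the same fit, and it shares all arrays with the strain comparisons. It was positive for all 10 genes. GSY2 differed by 2.34 ± 0.24 on the log2 scale (SE, limma adjusted p 0.000679), GPH1 by 1.96 ± 0.21 (adjusted p 0.000874) and GDB1 by 1.10 ± 0.27 (adjusted p 0.0372). These 3 of 10 genes were called higher and 0 lower, against 5.92% and 2.95% of all probe sets, or 8.87% either way. The median of the 10 genes was 1.14 and that of all probe sets 0.078. With 1 probe set per gene 567 of 5656 genes were called higher and 254 lower, with a median of 0.118. GLG1 and PGM2 were then called higher too. All 10 had an unadjusted p under 0.05, as did 24.7% of all probe sets. The other 7 genes ranged from 0.57 for UGP1 to 1.44 for PGM2, with adjusted p of 0.0506 to 0.138. The call of GDB1 held only without replicate 2 of the reference with air, among 12 fits that left out 1 array (adjusted p 0.0531 to 0.0889 in the other 11). Without that same array GAC1, GLC3 and GLG1 were called as well (adjusted p 0.0251, 0.0407 and 0.0291), GLG1 was also called without replicate 1 of that group (0.0372), and PGM2 was called without IMZ383 replicate 1 (0.00343). Strain, route and oxygen changed together in this difference, and they cannot be told apart.

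Across the 12 arrays, 25 of the 45 pairs of glycogen genes correlated at more than 0.5 and 3 correlated below 0. These correlations are descriptions over 12 arrays that share their 4 groups. GPH1 and GSY1 had the highest, 0.92, and the 3 negative ones were those of GLG2 with GSY1 (-0.512), GPH1 (-0.373) and PGM2 (-0.0321). With the average of the other 9 genes, GSY2 correlated at 0.947, GLC3 at 0.884 and GDB1 at 0.866, against 0.494 for GSY1 and 0.144 for GLG2. Within groups, after subtracting group means, the highest correlations were those of GPH1 with GLG1 (0.877) and with GSY2 (0.812). Replicate 1 of the reference with air had the highest signal of its group for all of these genes. GPH1 with GSY1, the highest pair over the arrays, was at 0.214 within groups, and the lowest was GLG2 with PGM2 (-0.198).

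Among 5292 other genes with a mean signal above the 25th percentile of all values, PAM1 (0.943), CDC34 (0.936), MOT2 (0.92), INO80 (0.92) and LOA1 (0.917) correlated best with the average of the 10 glycogen genes over the 12 arrays. PAM1 averaged 370 in IMZ383 and 370 in the reference without oxygen, and 189 in IMZ305 and 630 in the reference with air. CDC34, a ubiquitin-conjugating enzyme of the cell cycle, averaged 291 in IMZ383 and 281 in the reference without oxygen, and 135 in IMZ305 and 496 in the reference with air. All 5 fell in IMZ305 and none was called in IMZ383. They were picked for following the glycogen average over these same arrays, so these directions were largely set by the choice.

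The list of regulators of glycogen metabolism held 15 genes, all measured, among them SGA1, a glucoamylase that breaks glycogen down. For the counts of this list and of those below, the counts with 1 probe set per gene given above are the closer background. Of the list 5 were lower and 0 higher in IMZ305, where 8.3% of all probe sets were lower. These were GIP2, GLC8, GLC7, PCL10 and SNF1. GIP2 resembles the phosphatase subunit GAC1, and GLC8 and GLC7 are the modulator and catalytic subunit of that phosphatase. PCL10 is a cyclin that directs the kinase Pho85 to glycogen synthase. SNF1 is the yeast counterpart of AMP-activated kinase and is needed for glycogen storage. GIP2 averaged 21.5 ± 5.91 in IMZ305 and 85.9 ± 29.0 in the reference with air (SD, n = 3 each), a 3.92-fold fall with a limma adjusted p of 0.00336. GLC8 fell 1.99-fold (adjusted p 0.00135) and SNF1 1.69-fold (adjusted p 0.00137). The calls of GIP2, GLC8 and SNF1 held without any single array. That of PCL10 (adjusted p 0.0283) was lost without replicate 1 or 2 of IMZ305 or of the reference (0.0715 to 0.0981), and that of GLC7 (0.0328) without these 4 arrays or reference replicate 3 (0.0532 to 0.119). Without 1 array the count lower was 3 to 6, and the list's median log2 change was -0.37.

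In IMZ383 limma called none of the 15 genes of this list, where 2.29% of all probe sets were called, and the median was 0.20. In the reference without oxygen 8 were lower, SGA1 among them, and 0 higher than with air, with a median of -0.79, where 23.3% of all probe sets were lower. GIP2 fell 4.32-fold there (adjusted p 0.000647), the cyclin gene PCL8 2.31-fold (0.00110), PSK1, a kinase of glycogen synthase, 2.26-fold (0.00174) and GLC8 2.05-fold (0.000285). The groups of GIP2 overlapped except one, with 22.4 ± 0.889 in IMZ383, 19.4 ± 5.04 in the reference without oxygen and 21.5 ± 5.91 in IMZ305, while the reference with air stood above every other array. The difference between the strain effects was called higher for GLC8, SNF1, GIP2 and GLC7 (4 of 15, against 5.92% of all probe sets), and 2 of the 15 were called higher after median centring.

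The list of nutrient signalling kinases and stress activators had 10 measured genes. In IMZ305 2 of 10 fell, against 8.3% of all probe sets: RAS2, the activator of adenylate cyclase (1.67-fold, limma adjusted p 0.00920), and YAK1, a kinase opposed to protein kinase A (1.43-fold, adjusted p 0.0182). YAK1 was not called without IMZ305 replicate 1 or 2 (adjusted p 0.0537 and 0.0726). In IMZ383 YAK1 was the 1 gene called, 1.45-fold higher (adjusted p 0.0463), where 1.69% of all probe sets were higher. That call was lost in 10 of 12 fits that left out 1 array. In the reference without oxygen 5 of 10 were lower, against 23.3% of all probe sets, with YAK1 3.17-fold (adjusted p 6.72e-06), TPK2, a catalytic subunit of protein kinase A, 1.81-fold (0.00476) and MSN2, a stress activator of transcription, 1.91-fold (0.00484). The other 2, RAS2 and RIM15, were each lost in 7 of 12 fits without 1 array, and the count was 2 after median centring. Both were lost, leaving 3, without IMZ305 replicate 2, reference replicate 1 with air or reference replicate 3 without oxygen. The IMZ305 array enters there only through the shared spread. YAK1 averaged 135 ± 9.37 in IMZ383, 92.9 ± 3.18 in the reference without oxygen, 206 ± 11.0 in IMZ305 and 296 ± 45.5 in the reference with air. The median of the list was -0.37 in IMZ305, 0.31 in IMZ383 and -0.62 in the reference without oxygen.

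For the supply of glucose phosphates 6 of 7 genes were measured, without PGM3. PGM1, the minor phosphoglucomutase, rose 1.80-fold in IMZ305, with 256 ± 6.77 against 143 ± 12.8 in the reference with air (SD, n = 3 each, limma adjusted p 0.00205), while the signal of its partner PGM2 lay below the reference on every array. The hexokinase gene HXK1 fell 1.65-fold (adjusted p 0.000716) and EMI2, a relative of the glucokinase gene, 1.46-fold (0.0429, a call lost in 10 of 12 fits without 1 array). The counts were 1 higher and 2 lower of 6, against 6.09% and 8.3% of all probe sets. None of the 6 was called in IMZ383, where 2.29% of all probe sets were. In the reference without oxygen 3 were higher, where 11% of all probe sets were: EMI2 1.81-fold (adjusted p 0.00204), HXK1 1.34-fold (0.00308) and HXK2 1.62-fold (0.0296). Of these only EMI2 was also called after quantile normalization. HXK2 was not called there without reference replicate 2 or 3 of either condition (0.0686 to 0.103).

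The list of other users of UDP-glucose held 11 genes, all measured, of trehalose, cell wall glucan, glycoprotein and sterol glucoside synthesis. Not each of them encodes an enzyme that takes UDP-glucose itself. In IMZ305 the glucan genes KRE6 (2.63-fold, limma adjusted p 0.00115) and GSC2 (1.82-fold, 0.00789) rose, and FKS3 fell 1.92-fold, a call just under the threshold that was lost in 10 of 12 fits without 1 array. Of all probe sets 6.09% were higher and 8.3% lower there. KRE6 averaged 340 ± 14.3 in IMZ305 and 130 ± 17.1 in the reference with air. In IMZ383 TSL1, a subunit of the trehalose synthase complex, was the 1 gene of 11 called, where 2.29% of all probe sets were. It rose 2.41-fold, with 316 ± 93.1 against 127 ± 8.69 in the reference without oxygen (adjusted p 0.0181). That call was lost without IMZ383 replicate 1 or 3 or reference replicate 2 or 3 without oxygen (0.0508 to 0.0770). In the reference without oxygen TSL1 fell 3.63-fold (adjusted p 0.000217), and 4 of the 11 genes were lower and 3 higher, against 23.3% and 11% of all probe sets. Only 1 was higher without reference replicate 1 with air or reference replicate 2 or 3 without oxygen, and 0 at an adjusted p under 0.005, and 2 were lower after median centring.

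**Figure D4:**
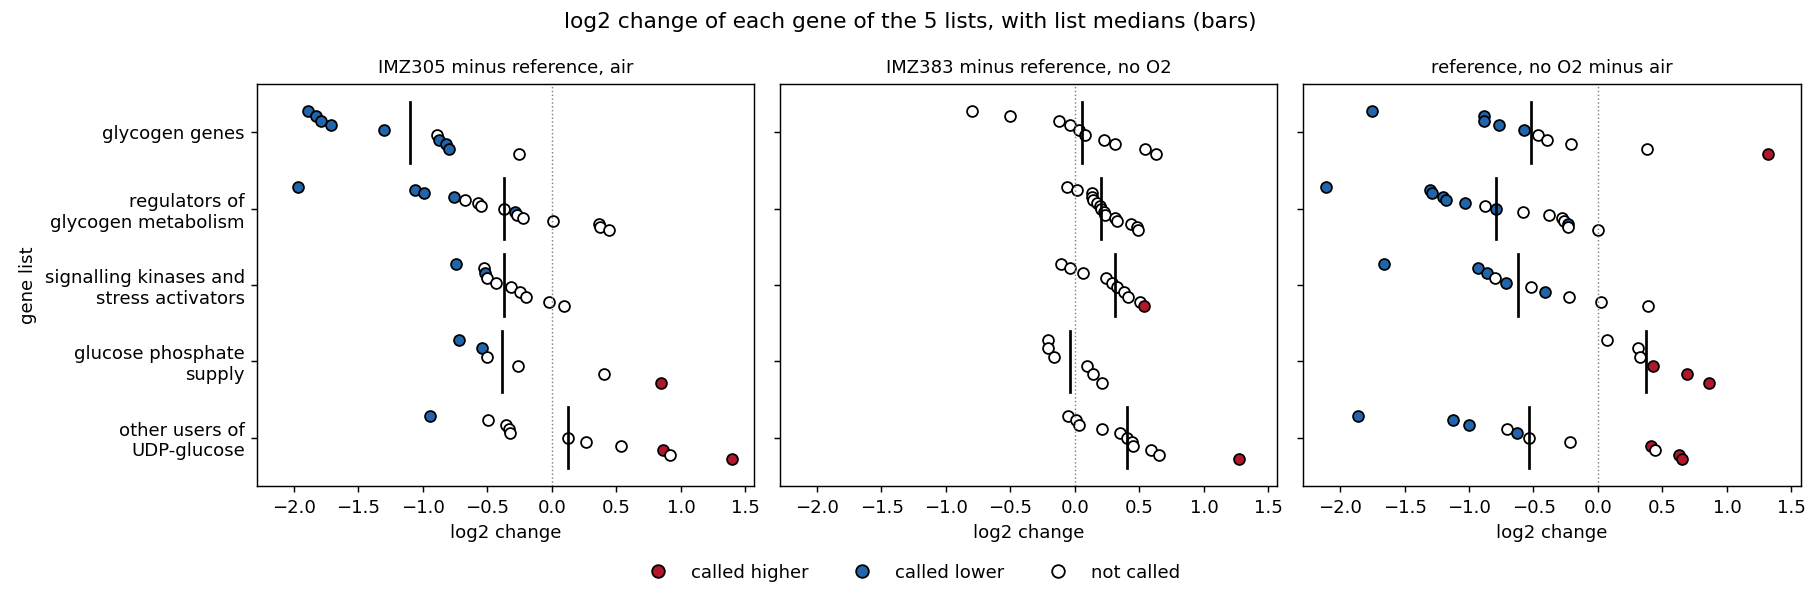
The log2 change of each measured gene of the 10 glycogen genes and of 4 related lists (points, filled where called), with list medians as bars, in the strain and oxygen comparisons. In IMZ305 the glycogen genes have the lowest median (-1.10), and in IMZ383 the 5 lists hold 2 filled points, YAK1 and TSL1.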

How the data were processed

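Total RNA (200 ng per culture) was labelled by in vitro transcription from the 3' end and hybridized to 12 Affymetrix yeast arrays, per the labels. The values deposited by the authors are probe set signal intensities on a linear scale, with all arrays scaled to a common level, so that a shift of all transcripts one way would not be seen. The summary software is not given in the sources used here. Of 9335 probe sets 60 were controls. The annotation named 1 gene for 6504 probe sets, several for 328 and none for 2443. Shares of all probe sets include those with no gene. In the fit to 1 probe set per gene the called shares were larger, except for that of genes higher without oxygen. All 10 glycogen genes matched systematic names, and no coordinates were used.

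Intensities were raised to a floor at their 10th percentile (1.1), which no glycogen gene met, and log2 values were fitted with limma 3.58.1 in R 4.3.3, one model holding the 4 group means of the 12 arrays, with moderated variances (eBayes) and two-sided p-values. Benjamini-Hochberg adjustment ran over 9275 probe sets. Genes with an adjusted p below 0.05 count as called, and only these are said to have risen or fallen. A gene with several probe sets would take the one with the highest mean. The glycogen genes are all named, with up to 4 called genes of each list per comparison by adjusted p, all genes that make up counts of 5 or fewer where they are listed, and the 5 genes most like the glycogen average. Other list genes were named after their values were seen. The members and lists were chosen with earlier results of these data known. The comparisons share reference arrays: that of IMZ305 and the oxygen comparison share the reference with air, and that of IMZ383 and the oxygen comparison the reference without oxygen. The number of arrays limits the precision. The p-values set a difference against the spread between cultures within the 4 groups, moderated over probe sets. With 1 strain per engineered genotype, they do not cover a spread between separately made strains. The procedure was also run on simulated data with independent noise and the same spread in every group. Unequal spreads between groups were therefore not covered by that run. Alternatives were 2 other scalings, other floors and filters, 1 probe set per gene, only the groups compared, the replicate number as a block, a trend with a robust prior, array weights, stricter thresholds, each array left out and, added after seeing the data, low or high BioB as a term.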

Additional observations from a re-analysis of the deposited data

Results flagged for a closer look

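For 3 glycogen genes the change in IMZ383 against its reference without oxygen differed from the change in IMZ305 against its reference with air, by the test of the difference itself. The difference (IMZ383 effect minus IMZ305 effect, log2) was 2.34 for GSY2, 1.96 for GPH1 and 1.10 for GDB1. For GSY2 it joined a change of 0.63 in IMZ383, which was not called, to one of -1.71 in IMZ305. For GPH1 the changes were 0.076 in IMZ383 and -1.89 in IMZ305, and for GDB1 0.22 in IMZ383 and -0.87 in IMZ305. The call of GDB1 (adjusted p 0.0372) is the least firm of the 3: it was lost in 11 of 12 fits without 1 array, and also after quantile normalization and after median centring. The fit with BioB as a term, where this call was lost too, equals for this difference the fit without replicate 3 of the reference with air. Those of GSY2 and GPH1 held in all of these fits. Groups of 3 arrays were not tested for single outlying arrays.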

How the results depend on the processing

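The numbers of the glycogen genes called lower in IMZ305 (8 as reported) and lower in the reference strain without oxygen (5) changed most with the settings. The count lower in IMZ305 was 5 in a fit to only the groups compared, 5 at a threshold of 2-fold and 3 at an adjusted p under 0.005. It was 6 with low or high BioB as a term, without GDB1 and GLG2. For IMZ305 and for the difference, that fit equals leaving out replicate 3 of the reference with air. The count was 9 with PGM2 added after quantile normalization, with the filter on low mean signal, with 1 probe set per gene and with an intensity trend and robust prior. The count lower without oxygen was 2 after quantile normalization, 1 after median centring, 2 in a fit to only the groups compared, 1 at 2-fold and 2 at an adjusted p under 0.005. The count higher there (1) was 2 after median centring, 0 in the fit to only the groups compared and 0 at an adjusted p under 0.005. With BioB as a term this comparison rests on 1 array of the reference with air, so no count is given. The difference between the strain effects (3 higher) had 5 with a floor 2 times as high, 5 with the filter on low mean signal, 5 with 1 probe set per gene, 5 with an intensity trend and robust prior and 6 with array quality weights, and 2, without GDB1, after quantile normalization (adjusted p of GDB1 0.0612) or median centring (0.101), with no floor (0.0525), with the replicate block, with BioB as a term (0.0745) and at an adjusted p under 0.005. Leaving out 1 array gave 6 to 9 lower in IMZ305, 0 to 1 higher in IMZ383, 0 to 2 higher and 3 to 5 lower in the reference without oxygen, and 2 to 6 higher for the difference. Signs turned only for small changes: after median centring for GPH1 (-0.043) and GLC3 (-0.085) in IMZ383 and for GLC3 (0.0010), UGP1 (0.18) and GLC7 (0.16) without oxygen, with array quality weights for GLG2 in IMZ383 (0.035), and with 1 array left out in IMZ383 for GLC3 (-0.10 to 0.13), GLG2 (-0.18 to 0.14) and GLG1 (-0.23 to 0.00010). The cause of these shifts was not tested. No change of a glycogen gene in IMZ305 or in the difference turned sign under any alternative. Same-numbered cultures did not deviate together over all probe sets (correlations of -0.0299 to 0.0479), which gave no sign of pairing. These values cannot show that same-numbered cultures were handled apart. With the replicate block GDB1 was the only glycogen gene to lose its calls, without oxygen (adjusted p 0.0747) and in the difference (adjusted p 0.0741). In that fit 3 rather than 5 signalling genes were called lower without oxygen. The planned use of the dimmest probe set gave no value, since each glycogen gene has 1. With 3 arrays a group, log2 changes whose intervals include 0 were not told apart from 0 at this precision. Some changes with intervals that exclude 0 were still not called after adjustment.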
